A study of Mus musculus with 11 samples.

Results

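The genes of photosensitive retinal ganglion cells and the non-visual opsins were followed in mouse retina across 2 postnatal ages and 2 genotypes. The group is a list of named genes, chosen with earlier results of these data known, and holds 8 of the 47069 genes in the count files. Its members are the opsin genes Opn4, Opn5 and Opn3, the T-box transcription factor genes Eomes and Tbx20, the neuropeptide gene Adcyap1 and the cation channel genes Trpc6 and Trpc7. Opn4, Eomes, Tbx20 and Adcyap1 were all lower at the later age, averaged over genotypes, although Adcyap1 did not pass the test in Kir2.1 alone or relative to ganglion cell markers. None of the members passed the test between genotypes, although Opn4 did, averaged over both ages, without a filter on low counts.

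A small set of ganglion cells senses light by itself, through melanopsin, the opsin that Opn4 encodes. Light-activated melanopsin couples through a Gq-class G protein and phospholipase C to TRPC6 and TRPC7 channels, which depolarise the cell. These cells project to brain centres that set the circadian clock and the pupil reflex, and they release the peptide PACAP, the product of Adcyap1, along with glutamate. Eomes, also called Tbr2, is needed for their formation and upkeep, and Tbx20 is a second T-box factor found in them.

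The study bears on whether correlated activity in the perinatal retina is needed for the wiring of visual axons in brain nuclei outside image formation. Retinas of C57BL/6 mice were dissociated whole, and total RNA was sequenced in 11 libraries. Wild-type animals gave 2 libraries at postnatal day 4 (P4) and 3 at P8, and animals of the genotype Brn3b-Kir2.1 gave 3 libraries at each age. In Brn3b-Kir2.1 mice a Brn3b-driven Cre removes a stop cassette ahead of a CAG-driven transgene, human Kir2.1 fused to eYFP, an inward rectifier potassium channel that holds neurons near their resting potential. Cre is thus limited to cells with a history of Brn3b (Pou4f2) expression, a ganglion cell factor. The controls are labelled wild type, whereas the protocol names Brn3b-cre mice, so the controls may carry the Cre. The later age is P8 in the sample labels and P11 in the protocol, and it is called P8 here. The source is given as ganglion cells, but the tissue is given as retina and no sort is described. The labels do not say whether replicates are separate animals, so p-values measure only the spread between these libraries. Within 3 of the 4 groups the counts of Y-linked genes differed widely between replicates, so those replicates are not all repeats of 1 RNA sample. Kir2.1 replicates 1 and 3 at P4 were close, with Y-linked sums of 88.9 and 106.9 CPM. For that pair and for wild type at P4 the spread may be technical.

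Counts assigned to genes ranged from 9362215 to 12478838 per library. Kir2.1 replicate 2 at P8 had the fewest, with 31325 genes detected against 22609 to 24591 in the other libraries and 69.4% of its unique records outside genes against 57.0% to 62.4%. Levels are given as CPM, which are counts scaled to a common library total by the TMM method. Markers of several retinal cell types were present in every library, and at P8 the 7 rod markers summed to 435 to 3607 CPM while the 12 ganglion cell markers summed to 198 to 329 CPM. The ganglion cell markers summed to 1483 and 963 CPM in wild type and to 761, 288 and 781 CPM in Kir2.1 libraries at P4. Kir2.1 replicate 2 at P4 was the lowest of these, and its Y-linked genes summed to 0.690 CPM against 38.1 CPM or more in every other library except wild type replicate 2 at P8, at 0.170 CPM. Wild type replicate 2 at P4 had 840 CPM of the 6 markers of dividing cells against 1895 to 2435 CPM in the other P4 libraries. Among wild type P8 libraries, the rod markers summed to 435, 1704 and 3607 CPM. Because whole retina was sequenced, a fall in a ganglion cell gene by fewer cells and one by less RNA per cell cannot be told apart. The part that the other cell types' markers play in the results below was not tested.

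In the GENCODE M21 annotation of GRCm38, the assembly also called mm10, Opn4 lies on chromosome 14 from 34590618 to 34600142 on the minus strand, and its merged exons span 2961 bases. Eomes lies on chromosome 9 from 118478212 to 118486132 on the plus strand, and Tbx20 on the same chromosome from 24718138 to 24774303 on the minus strand. Adcyap1 lies on chromosome 17 from 93199017 to 93206537 on the plus strand. Antisense genes overlap 4.39% of the exonic bases of Opn4 and 2.84% of those of Eomes, and 24.1% of those of Opn3 are shared with Chml on the same strand. Reads in those stretches cannot be given to one gene with certainty. The 250 bases before the start of the 4 members that fell with age are shown because these genes changed together; they come from RefSeq on GRCm38.p6, and any match to 3 searched motifs is in capitals.
Opn4: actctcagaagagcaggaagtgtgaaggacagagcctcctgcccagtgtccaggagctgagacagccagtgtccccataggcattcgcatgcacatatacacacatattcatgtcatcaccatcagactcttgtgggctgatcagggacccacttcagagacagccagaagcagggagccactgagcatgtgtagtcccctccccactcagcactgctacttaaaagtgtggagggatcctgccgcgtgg
Tbx20: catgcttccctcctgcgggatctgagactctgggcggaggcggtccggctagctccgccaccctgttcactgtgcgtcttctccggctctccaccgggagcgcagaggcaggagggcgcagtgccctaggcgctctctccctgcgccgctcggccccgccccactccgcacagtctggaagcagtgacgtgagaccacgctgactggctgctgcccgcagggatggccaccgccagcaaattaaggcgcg
Eomes: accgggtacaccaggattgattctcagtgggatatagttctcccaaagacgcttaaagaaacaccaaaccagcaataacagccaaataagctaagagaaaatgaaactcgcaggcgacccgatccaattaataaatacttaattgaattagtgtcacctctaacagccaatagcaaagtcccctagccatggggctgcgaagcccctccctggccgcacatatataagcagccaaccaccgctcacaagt
Adcyap1: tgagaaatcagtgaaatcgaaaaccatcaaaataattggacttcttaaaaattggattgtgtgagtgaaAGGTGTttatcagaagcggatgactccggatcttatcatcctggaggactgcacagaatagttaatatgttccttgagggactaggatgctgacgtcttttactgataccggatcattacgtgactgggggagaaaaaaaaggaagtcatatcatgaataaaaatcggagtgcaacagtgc
The windows are chr14:34600143-34600392 (minus strand), chr9:24774304-24774553 (minus strand), chr9:118477939-118478188 (plus strand) and chr17:93198767-93199016 (plus strand). Their GC content was 54.8%, 68.8%, 46.4% and 39.6%, in the same order. The motifs, read on both strands, were the T-box core AGGTGT, the homeodomain core TAATTA and the E-box CAGCTG, none of which contains another. Adcyap1 alone of the 7 members with a window held a match, the T-box core at bases -181 to -176, counted back from the start, and a second Adcyap1 window that begins at another start held it at -107 to -102. The core is found in 11.8% of the 32851 windows of all genes, TAATTA in 4.84% and CAGCTG in 13%. A match describes the letters and does not show a binding site.

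Levels between genes were compared as CPM per kilobase of exon. Averaged over the 11 libraries, Eomes was highest at 8.94, followed by Opn4 at 5.61, Trpc7 at 1.67, Opn3 at 0.855, Tbx20 at 0.719, Adcyap1 at 0.688, Trpc6 at 0.522 and Opn5 at 0.0332 CPM per kilobase. Eomes was above Opn4 in 11 of 11 libraries, Trpc7 above Opn3 in 10 and Trpc6 above Opn5 in 11. The other neighbours in this order did not separate: Opn4 was above Trpc7 in 5 of 11 libraries, Opn3 above Tbx20 in 6, Tbx20 above Adcyap1 in 3 and Adcyap1 above Trpc6 in 6. The order itself differed between ages. Opn4 was second in both P4 groups, at 16.2 and 8.75 CPM per kilobase, and below Trpc7 in both P8 groups, at 0.618 and 0.441 CPM per kilobase. At P8 Tbx20 was the lowest of the 7 tested members in both groups, at 0.0328 and 0.0405 CPM per kilobase. The rank of Tbx20 depends on its merged exon length, 11997 bases against 1906 to 5066 for the other members. In CPM over the 11 libraries it averaged 8.63, above Trpc7 at 6.46.

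**Figure D1:**
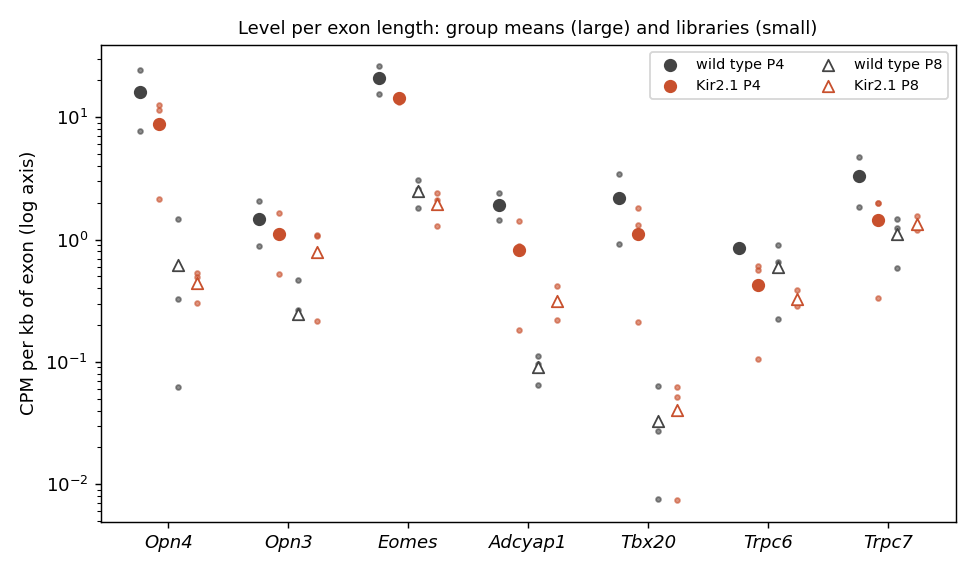
CPM per kilobase of exon (log axis) for the 7 members that passed the filter on low counts; small points are libraries, large symbols group means, circles P4 and triangles P8, and the 1 library with 0 counts of Opn3 (wild type P8) is not drawn. Tbx20, Opn4 and Eomes have all P8 libraries below all P4 libraries, while the ages overlap for Trpc6 and Trpc7.

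The wild type P4 libraries held Opn4, the melanopsin gene, at 72.8 and 22.8 CPM, and those of Kir2.1 held it at 37.4, 6.36 and 33.9 CPM. At P8 it stood at 0.183, 4.33 and 0.975 CPM in wild type and at 1.57, 1.46 and 0.891 CPM in Kir2.1. Every P8 library was below every P4 library, and the spread within wild type was wide at both ages. The P8 values rest on 2 to 51 counts per library. Averaged over the genotypes, Opn4 was 4.49 ± 0.62 (SE) lower on the log2 scale at P8, with an edgeR adjusted p of 0.000337.

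Eomes, the T-box factor of these cells, stood at 108.5 and 64.8 CPM in wild type and at 62.0, 55.2 and 62.8 CPM in Kir2.1 at P4. At P8 it stood at 10.8, 12.7 and 7.47 CPM in wild type and at 10.01, 5.40 and 8.83 CPM in Kir2.1. The ages did not overlap, and the P8 libraries still held 52 to 150 counts each. Its fall with age was 2.98 ± 0.19 (SE, log2) with an edgeR adjusted p of 2.10e-06, the smallest error among the members.

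Tbx20, the other T-box factor, stood at 41.1 and 11.1 CPM in wild type and at 21.7, 2.53 and 15.9 CPM in Kir2.1 at P4. At P8 its levels were 0.0915, 0.765 and 0.325 CPM in wild type and 0.745, 0.623 and 0.0891 CPM in Kir2.1. All P8 libraries again lay below all P4 libraries, with only 1 to 9 counts each at P8. Its fall of 5.37 ± 0.66 (SE, log2), with an edgeR adjusted p of 0.000164, was the largest point estimate among the members, but its 95% interval of -6.81 to -3.93 overlapped that of Opn4, -5.83 to -3.15.

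Adcyap1, which encodes PACAP, stood at 9.14 and 5.49 CPM in wild type and at 3.34, 0.690 and 5.33 CPM in Kir2.1 at P4. At P8 its levels were 0.366, 0.425 and 0.244 CPM in wild type and 1.57, 0.831 and 1.16 CPM in Kir2.1. The wild type P8 values are 3 to 5 counts each, close to the 3 counts taken here as the floor. The ages separated in wild type, but Kir2.1 replicate 2 at P4 lay below all 3 Kir2.1 libraries at P8. Averaged over the genotypes, the fall was 2.87 ± 0.48 (SE, log2), with an edgeR adjusted p of 0.00118.

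The channel genes changed less. Trpc7 stood at 18.4 and 7.18 CPM in wild type and at 7.80, 1.302 and 7.78 CPM in Kir2.1 at P4. At P8 its levels were 2.29, 5.69 and 4.87 CPM in wild type and 5.05, 6.03 and 4.64 CPM in Kir2.1. Trpc6 stood at 4.27 and 4.31 CPM in wild type and at 3.07, 0.536 and 2.88 CPM in Kir2.1 at P4. At P8 its levels were 3.29, 4.59 and 1.14 CPM in wild type and 1.57, 1.46 and 1.96 CPM in Kir2.1. The ages overlapped for both genes. Their log2 differences between P8 and P4, averaged over genotypes, were -0.84 ± 0.42 (SE) for Trpc7 and -0.44 ± 0.45 (SE) for Trpc6, with edgeR adjusted p of 0.18 and 0.531. The 95% interval for Trpc6, -1.41 to 0.53, does not reach the falls of the 4 members above, while that for Trpc7 runs from -1.75 to 0.08. Trpc7 passed the test at an edgeR adjusted p of 0.0295, with a fall of 1.07 on the log2 scale, when Kir2.1 replicate 2 at P4 was left out. It also passed without a filter on low counts, with an edgeR adjusted p of 0.0129 over both genotypes and 0.0011 in wild type.

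Opn3, which encodes encephalopsin, an opsin expressed in brain and many other tissues, stood at 3.93 and 1.69 CPM in wild type and at 3.16, 0.996 and 2.27 CPM in Kir2.1 at P4. At P8 it stood at 0, 0.510 and 0.894 CPM in wild type and at 0.414, 2.08 and 2.05 CPM in Kir2.1. The wild type ages did not overlap and the Kir2.1 ages did. Its log2 difference between P8 and P4 was -1.52 ± 0.62 (SE), with an edgeR adjusted p of 0.104. DESeq2 called it, at -1.54 with a DESeq2 adjusted p of 0.04996, as did edgeR without a filter on low counts, with an edgeR adjusted p of 0.0133. Opn5, which encodes neuropsin, a violet- and ultraviolet-sensitive opsin, had 0 counts in all 5 P4 libraries and 0, 3 and 0 counts in wild type and 3, 1 and 1 in Kir2.1 at P8. With 8 counts in all it was not tested, and a count of 0 allows up to about 3 counts, or 0.256 CPM in wild type replicate 1 at P4.

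**Figure D2:**
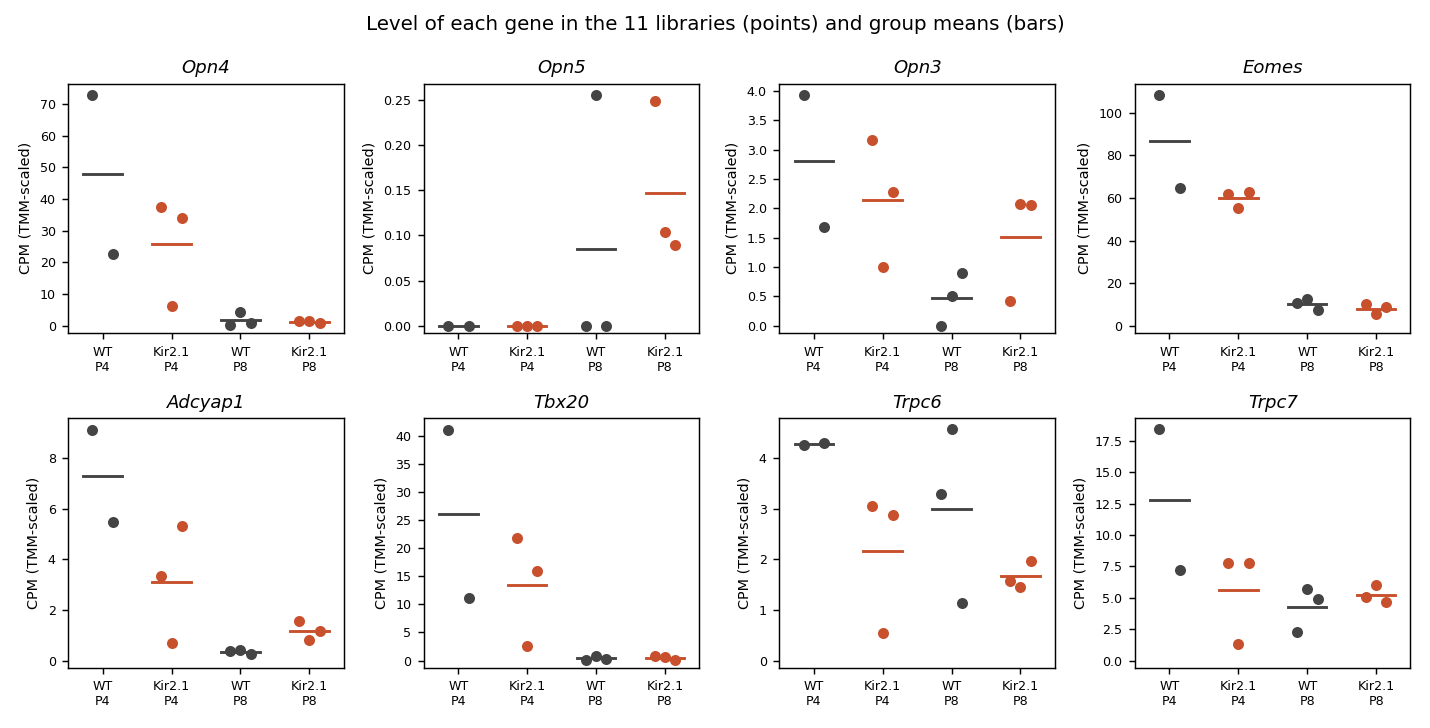
CPM of each of the 8 genes (each panel has its own axis from 0) in the 11 libraries by group; points are libraries and bars are group means. Opn4, Eomes and Tbx20 show no overlap between the ages, and the Kir2.1 P4 library with the lowest Opn4 (6.36 CPM) is also the lowest of its group for the other 6 tested genes.

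Age was then tested within each genotype. In wild type 4 of the 7 tested members fell between P4 and P8, against 3.58% of all 18188 genes tested that fell. They were Opn4 (log2 difference -4.69 ± 0.88 SE), Eomes (-3.07 ± 0.28 SE), Tbx20 (-5.99 ± 0.96 SE) and Adcyap1 (-4.37 ± 0.73 SE), with edgeR adjusted p of 0.00911, 0.000171, 0.00392 and 0.0046. In Kir2.1 retinas 3 members fell, against 8.73% of all genes: Opn4 (-4.29 ± 0.87 SE), Eomes (-2.88 ± 0.27 SE) and Tbx20 (-4.75 ± 0.91 SE), with edgeR adjusted p of 0.00575, 7.16e-05 and 0.00425. Adcyap1 was -1.37 ± 0.61 (SE) there, with an edgeR adjusted p of 0.154, and -1.85 with an adjusted p of 0.0224 without Kir2.1 replicate 2. Averaged over genotypes 4 members fell, against 12.1% of all genes, and their median log2 difference over the 7 tested was -2.87 beside 0.02 over all genes. Without wild type replicate 1 at P4, the library with the most Opn4, Eomes alone of the members was called in wild type, and Opn4 was -3.63, Tbx20 -4.76 and Adcyap1 -3.96 with edgeR adjusted p of 0.139, 0.0511 and 0.0609. That fit leaves 1 wild type library at P4, which is assumed to vary like the other groups, and its calls over all genes fell from 798 to 163. Fitted on the wild type libraries alone, Opn4 was -4.71 with an edgeR adjusted p of 0.0812, in a fit that called 113 genes in all. limma's voom, which weights libraries by quality, did not call Opn4 or Tbx20 within either genotype, with limma adjusted p of 0.0772 and 0.122 in wild type and 0.0503 and 0.0799 in Kir2.1. Its log2 differences for Opn4 and Tbx20 were -4.228 and -5.315 in wild type and -4.035 and -4.746 in Kir2.1. Without wild type replicate 2 at P8 the differences of Opn4 and Tbx20 in wild type grew to -6.30 and -6.86, and without replicate 2 at P4 to -5.30 and -6.65.

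**Figure D3:**
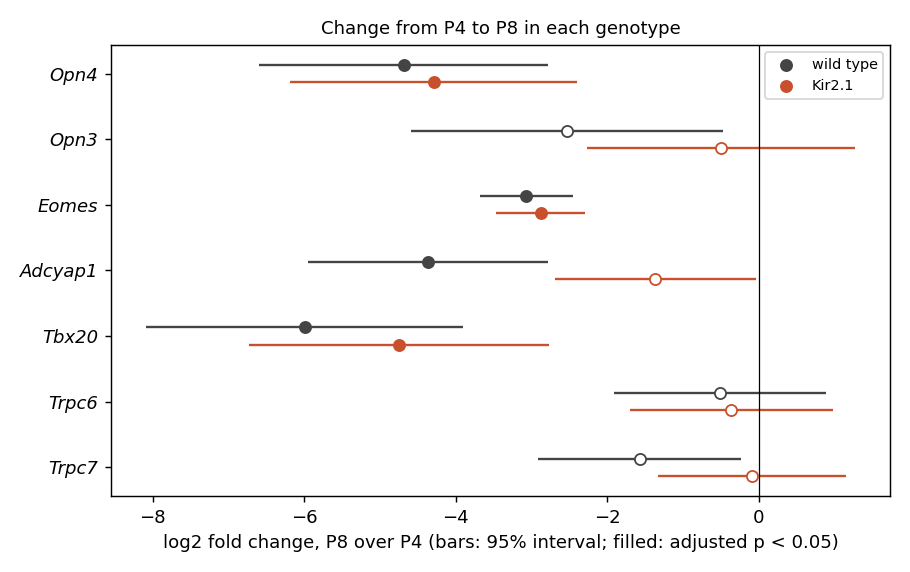
Log2 fold change of P8 over P4 for the 7 tested members in wild type (grey) and Kir2.1 (red), with 95% intervals; filled points had an edgeR adjusted p under 0.05. Opn4, Eomes and Tbx20 are filled in both genotypes, Adcyap1 in wild type, and Opn3, Trpc6 and Trpc7 in neither.

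The ranges of the libraries were also compared, without a model. In wild type 6 of the 7 tested members, all but Trpc6, had every P8 library below every P4 library, as did 16.9% of all genes. In Kir2.1 the 3 called members did, against 18.7% of all genes. Over both genotypes together the same 3 members did, against 7.11% of all genes. An exact two-sided permutation test of mean CPM, 5 P4 libraries against 6 P8 libraries, gave p = 0.00433 for Opn4, Eomes and Tbx20, the smallest value this design allows, and 0.0173 for Adcyap1. The same test gave 0.0476 for Opn3, 0.186 for Trpc7, 0.437 for Trpc6 and 0.0909 for Opn5, 8 tests in all with no adjustment.

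General ganglion cell markers fell as well. Of the 12 markers 11 fell between P4 and P8 over both genotypes and Nefh rose, with a median log2 difference of -2.02. Markers of other cells moved too: all 6 of dividing cells fell, with a median of -4.38, as did 4 of 5 of microglia, with a median of -0.95 over the 5, while all 7 of rods and all 6 of bipolar cells rose, with medians of 3.24 and 4.42. The members were also expressed per 1000 counts of these markers, which include the RNA-binding protein gene Rbpms and the vesicular glutamate transporter gene Slc17a6. On this scale Opn4 was 49.1 and 23.7 in wild type and 49.2, 22.1 and 43.4 in Kir2.1 at P4, and 0.638, 13.2 and 4.91 in wild type and 5.50, 6.80 and 3.62 in Kir2.1 at P8. Tbx20 ranged from 8.78 to 28.5 at P4 and from 0.319 to 2.91 at P8, and Eomes from 67.3 to 192 at P4 and from 25.3 to 38.7 at P8. All 3 genes were without overlap between the ages on this scale, as were 0.407% of all genes in that direction (0.176% without Ebf1 and Ebf3). The exact two-sided permutation p was 0.00433 for each over 5 and 6 libraries. Any gene without overlap must give that value, so it adds nothing to the separation. With the summed marker counts in place of the library size, edgeR gave log2 differences of -2.69 ± 0.44 (SE) for Opn4, -3.52 ± 0.53 (SE) for Tbx20 and -1.38 ± 0.39 (SE) for Eomes, with edgeR adjusted p of 3.84e-08, 2.12e-09 and 0.000736. Only 1.06% of all genes fell on that scale, among them all 6 markers of dividing cells, with a median of -2.71. Of the 12 ganglion cell markers themselves, 4 fell and 2 rose on that scale, with a median of -0.32. All genes share the error of 1 marker sum per library, which these p-values do not take into account.

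Adcyap1 did not pass on the marker scale, at -1.09 ± 0.63 (SE, log2) with an edgeR adjusted p of 0.0997, but did without Kir2.1 replicate 2 at P4, at -1.23 with an edgeR adjusted p of 0.0217. On all 11 libraries DESeq2 and voom called it at the same size, with a DESeq2 adjusted p of 0.0463 and a limma adjusted p of 0.0263. Opn3 was at 0.34 ± 0.67 (SE) with an edgeR adjusted p of 0.623. Trpc6 and Trpc7 rose relative to the markers, by 1.28 ± 0.56 and 1.05 ± 0.45 (SE, log2) with edgeR adjusted p of 0.0273 and 0.0255, but so did 82.4% of all genes. Trpc6 per 1000 marker counts was 1.86 to 4.47 at P4 and 5.50 to 13.9 at P8, without overlap, as were 22.2% of all genes in that direction. Its exact two-sided permutation p of 0.00433 (5 against 6 libraries) is likewise the value that any gene without overlap gives. The rise of Trpc6 was no longer called without wild type replicate 1 at P4, wild type replicate 2 at P8 or Kir2.1 replicate 3 at P8, with values of 1.13, 1.14 and 1.21 and edgeR adjusted p of 0.112, 0.0713 and 0.059. That of Trpc7 was not called without wild type replicate 2 at P4, wild type replicate 3 at P8 or Kir2.1 replicate 2 at P8, with values of 0.89, 0.86 and 0.93 and edgeR adjusted p of 0.12, 0.0765 and 0.0724. It was not called by voom either, at 0.56 with a limma adjusted p of 0.0798, nor without the filter on low counts, with an edgeR adjusted p of 0.0555. Without wild type replicates 2 at P4 and 3 at P8 and Kir2.1 replicate 2 at P4 together, a set chosen after seeing the data that leaves 1 wild type library at P4, it was 0.56 with an edgeR adjusted p of 0.112. The marker sum leaned on Ebf1 and Ebf3, transcription factor genes also known outside ganglion cells, which gave 25.3% to 37.1% of its counts at P4 and 32.9% to 56.2% at P8. Without these markers, an alternative chosen after seeing the data, Opn4, Tbx20 and Eomes still fell, by 2.40 ± 0.51, 3.20 ± 0.61 and 1.05 ± 0.46 (SE, log2), with edgeR adjusted p of 2.18e-05, 2.70e-06 and 0.0272, where 0.786% of all genes fell. Of the 12 ganglion cell markers 3 fell and 2 rose there. Eomes per 1000 markers was 192 in Kir2.1 replicate 2 at P4 and 67.3 to 81.5 in the other P4 libraries. In CPM this library had the lowest Eomes of the 5 at P4, at 55.2, and its marker sum was lower still relative to the others.

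**Figure D4:**
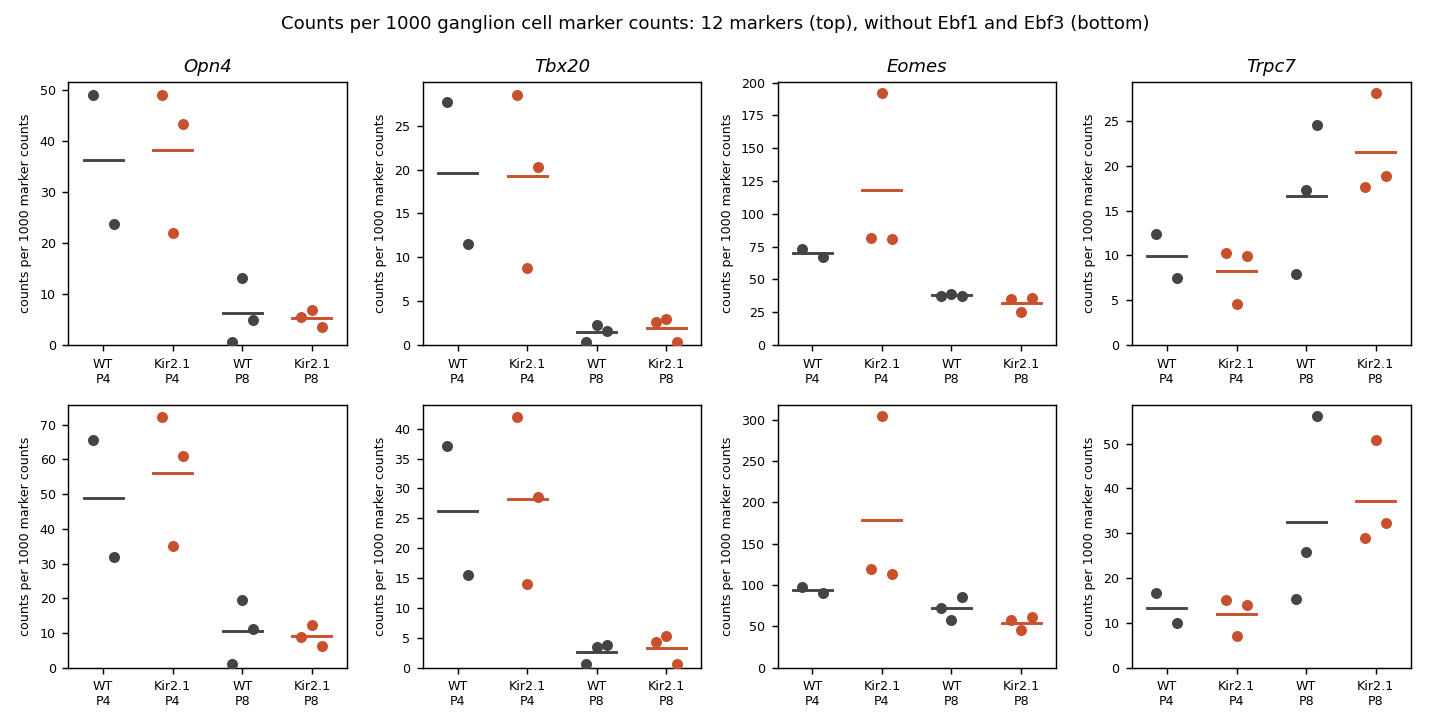
Counts of Opn4, Tbx20, Eomes and Trpc7 per 1000 ganglion cell marker counts, with all 12 markers (top) and without Ebf1 and Ebf3 (bottom); points are libraries and bars are group means. Opn4, Tbx20 and Eomes are lower in every P8 library than in any P4 library in both rows, while most Trpc7 values are higher at P8.

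The genotypes were compared at each age. At P4 all 7 tested members had lower fitted levels in Kir2.1, from -0.40 for Opn3 to -1.23 for Adcyap1 on the log2 scale, but none passed the test, and edgeR called 0% of all genes; 7.22% had an unadjusted p under 0.05, DESeq2 called 33 genes and edgeR without a filter on low counts 339, and neither called a member. Opn4 differed by -0.89 ± 0.75 (SE), Eomes by -0.53 ± 0.27 (SE), Adcyap1 by -1.23 ± 0.62 (SE) and Trpc7 by -1.19 ± 0.61 (SE), with edgeR adjusted p of 0.802 for Opn4 and 0.704 for the others. The 95% interval for Opn4, -2.52 to 0.74, leaves room for large differences in either direction, and that for Eomes is -1.11 to 0.05. Eomes, Adcyap1 and Trpc6 had every Kir2.1 library below both wild type libraries, as did 14.4% of all genes. For Eomes the exact two-sided permutation p was 0.2, the smallest that 2 against 3 libraries can give. Without wild type replicate 1 the P4 differences of Opn4, Opn3 and Tbx20 changed sign, to 0.18, 0.33 and 0.27.

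All 12 ganglion cell markers were also below wild type in the P4 fit, with a median log2 difference of -1.15, and none passed the edgeR test. In the authors' deposited table for P4 the marker Thy1 was called, at -1.49 with an adjusted p of 0.00268, and Isl2 was at 0.023. Other markers also lay to one side at P4: all 6 of bipolar cells (median -2.85) and 4 of 5 vascular ones (median -1.07) were below wild type, and all 6 of dividing cells (0.31) and all 5 of microglia (0.27) above, none of them called by edgeR. The authors' deposited table for P4 did call Mki67, Top2a, Ccnb1, Cdk1 and Aurkb of dividing cells higher, at 0.99 to 1.39, but not Birc5. It called Vsx1, Grm6 and Trpm1 of bipolar cells lower, at -3.68, -7.19 and -5.82, but not Cabp5, Prkca or Pcp2. Of the rod and amacrine cell markers it called Pde6b, Slc6a9 and Chat lower. Wild type replicate 2 alone had 287 CPM of bipolar and 708 CPM of rod markers, against 102 to 109 and 141 to 479 CPM in the other P4 libraries. Per 1000 marker counts the P4 genotypes overlapped for Opn4, Tbx20 and Adcyap1. Eomes per 1000 marker counts was 73.2 and 67.3 in wild type and 81.5, 192 and 80.4 in Kir2.1, so on this scale every Kir2.1 library was higher. The same held for Opn3, at 2.65 and 1.76 in wild type and 4.15, 3.46 and 2.91 in Kir2.1, and for 59.5% of all genes. The lower CPM of Eomes in Kir2.1 at P4 therefore went with a larger difference in the markers.

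At P8 the members had no common direction. Fitted log2 differences between Kir2.1 and wild type were -0.49 ± 0.97 (SE) for Opn4, -0.34 ± 0.27 (SE) for Eomes, 0.28 ± 1.20 (SE) for Tbx20, -0.84 ± 0.61 (SE) for Trpc6, 0.28 ± 0.57 (SE) for Trpc7 and 1.64 ± 0.90 (SE) for Opn3. None passed the edgeR test, which called 0% of all genes, with 6.82% at an unadjusted p under 0.05 3 genes called by DESeq2 and 447 by edgeR without the filter. Without wild type replicate 2 the difference of Opn4 was 1.12. Markers of several cell types lay to one side at P8. All 7 of rods (median 0.89), all 6 of bipolar cells (0.18) and all 5 of microglia (0.44) were above wild type. All 7 of amacrine cells (-0.42) and 10 of the 12 of ganglion cells (-0.17) were below it, and edgeR called none of them. The authors' deposited table for P8 called Nrl and Gnat1 of rods higher and Gad1 and Tfap2a of amacrine cells lower. Adcyap1 was the 1 member without overlap at P8: its Kir2.1 libraries (0.831 to 1.57 CPM) all lay above the wild type libraries (0.244 to 0.425 CPM), as was true of 5.47% of all genes. Its log2 difference was 1.77 ± 0.72 (SE) with an edgeR adjusted p of 0.699, and the exact two-sided permutation p was 0.1, the smallest that 3 against 3 libraries can give. Per 1000 marker counts Adcyap1 was 1.28, 1.29 and 1.23 in wild type and 5.50, 3.89 and 4.71 in Kir2.1, so the groups also stayed apart on that scale, as did 2.49% of all genes in that direction.

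The change of the genotype difference between P4 and P8 was tested directly. It was called for 0% of all genes by edgeR, with 3.09% at an unadjusted p under 0.05 no gene called by DESeq2 and 136 by edgeR without the filter, with no member among them. All 7 members had estimates above 0, from 0.15 ± 0.90 (SE, log2) for Trpc6 to 3.002 ± 0.95 (SE, log2) for Adcyap1, with a median of 1.25. So had all 12 ganglion cell, all 7 rod and all 6 bipolar cell markers, with medians of 1.04, 1.14 and 3.07. The edgeR p of Adcyap1 was 0.00819 before and 0.9998 after adjustment. Averaged over both ages the genotype difference was called for 0% of all genes, with 11.7% at an unadjusted p under 0.05 and 86 genes called by DESeq2. Without the filter edgeR called 901 genes, with Opn4 among them at -0.70 and an edgeR adjusted p of 0.0409. In the filtered fit to all 11 libraries Eomes had the smallest p among the members, with a log2 difference of -0.44 ± 0.19 (SE) and an edgeR adjusted p of 0.409. Without wild type replicate 3 at P8, edgeR called 609 genes over both ages and 219 at P8, and no member.

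**Figure D5:**
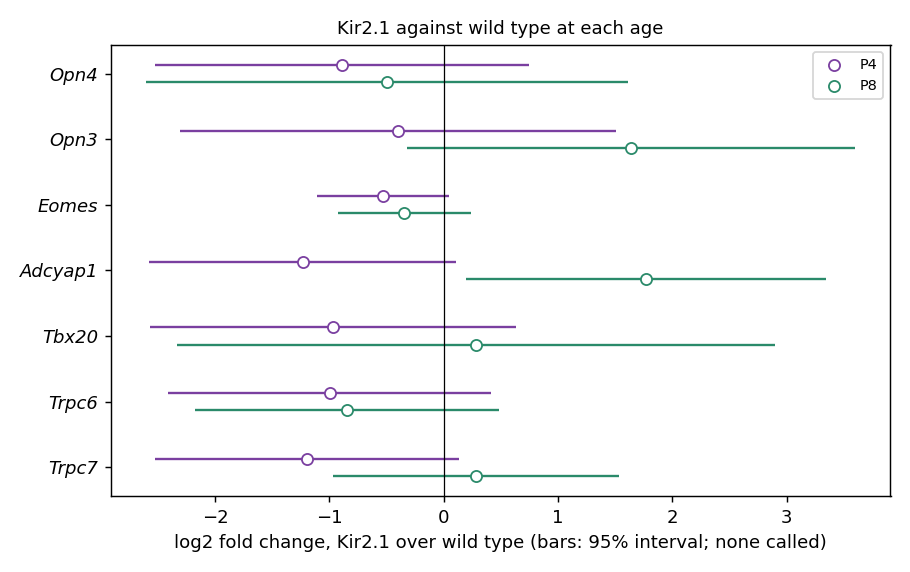
Genotype difference (log2, Kir2.1 minus wild type) of the 7 tested members at P4 (purple) and P8 (green), with 95% intervals from edgeR. No member was called, all 7 P4 points lie below 0, and Adcyap1 lies at -1.23 at P4 and 1.77 at P8.

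In the authors' deposited table for P4 no member had an adjusted p under 0.05, where 2.27% of the 13830 genes with one did. The log2 fold changes in the authors' deposited table at P4 were -0.35 for Opn4, -0.28 for Eomes, -0.94 for Adcyap1, -0.90 for Trpc7, -0.77 for Trpc6 and -0.44 for Opn3. Tbx20 was at 0.13 in the authors' deposited table and at -0.97 in the edgeR fit, and the libraries behind that table are not given in the sources used here. At P8 the authors' deposited table gave an adjusted p to Eomes (log2 fold change -0.56, adjusted p 0.434) and Trpc7 (0.72, adjusted p 0.542) and to no other member, where 7.27% of 13396 genes were called. At P8 the authors' deposited table listed Adcyap1 at 1.59, Opn3 at 2.48, Opn4 at -1.05, Trpc6 at -1.22 and Tbx20 at -0.52, all without an adjusted p. Tbx20 again had the opposite sign in the authors' deposited table to the edgeR fit, at 0.28.

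The other genes of melanopsin signalling, the G proteins, phospholipases, arrestins and receptor kinases that act downstream of the opsin and the atypical protein kinase C gene Prkcz, were tested as a list of 10. With age, over both genotypes, 3 of 10 fell and 1 rose, beside 12.1% and 10.7% of all genes, with a median log2 difference of -0.19. Gna14, a Gq-class alpha subunit, fell by 2.44 ± 0.70 (SE, log2) with an edgeR adjusted p of 0.026, and its 95% interval of -3.98 to -0.91 overlaps that of Opn4. Its level was 1.183 to 4.27 CPM in wild type and 0.153 to 0.961 CPM in Kir2.1 at P4. Grk3, a receptor kinase, fell by 0.70 ± 0.12 (SE, log2) and Plcb4, a phospholipase C, rose by 0.43 ± 0.11 (SE, log2), with edgeR adjusted p of 0.00131 and 0.0157. Arrb2, a beta-arrestin, fell by 0.40 ± 0.12 (SE, log2) with an edgeR adjusted p of 0.0307.

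Among other opsins, the cone opsin Opn1mw rose by 3.03 ± 0.88 (SE, log2), opposite to Opn4, and Rrh, which encodes peropsin, fell by 0.64 ± 0.21 (SE, log2). Their edgeR adjusted p were 0.0273 and 0.0441. In the PACAP family, the receptor gene Adcyap1r1 fell by 0.98 ± 0.24 (SE, log2; edgeR adjusted p 0.0129), together with its ligand gene Adcyap1. Vip, a related peptide gene known in amacrine cells, rose by 4.84 ± 0.80 (SE, log2; edgeR adjusted p 0.00113), from 0 to 0.186 CPM at P4 to 0.975 to 5.61 CPM at P8. Of 4 other T-box genes, Tbx3 fell by 0.71 ± 0.13 (SE, log2; edgeR adjusted p 0.00238). None of 4 other genes linked to photosensitive ganglion cells (Rasgrp1, Nmb, Baiap3 and Irx1) was called with age.

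edgeR called no gene of these lists between genotypes at either age. The authors' deposited table called Rasgrp1 at P4, at -1.45 with an adjusted p of 0.0162. At P8 the authors' deposited table called 5 genes of these lists: Vipr2 at 1.28, Arrb1 at -0.62, Trpc4 at -0.80, Plcb1 at -0.77 and Tbx3 at -0.63. The smallest unadjusted edgeR p at P4 was that of Adcyap1r1, at -1.05 ± 0.36 (SE, log2) with an edgeR adjusted p of 0.677, in the same direction as Adcyap1. At P8 it was that of Arrb2, at -0.41 ± 0.16 (SE, log2) with an edgeR adjusted p of 0.699.

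Across the 11 libraries, Tbx20 had the pattern most like that of Opn4 among 15989 ranked genes, with a Pearson r of 0.98 on log2 CPM. The closest genes outside the group were Klf7, Kcnh4 and AW551984, with r of 0.97, 0.969 and 0.968. For Eomes the closest were Uck2 and Lhx9, with r of 0.982 and 0.98. These values are descriptions, since all points share the age difference and the library composition. With group means removed, r was 0.891 between Opn4 and Tbx20, 0.877 between Opn4 and Trpc7 and 0.912 between Tbx20 and Trpc7, but 0.374 between Opn4 and Eomes.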

How the data were processed

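Per the submitters' processing notes, which give no order or role, the tools were cutadapt 1.18, STAR 2.5.0c, SAMtools 1.9, bedtools 2.26.0, HTSeq 0.6.1 and DESeq2, with build mm10; the annotation and strand setting are not given in the sources used here. The deposited files hold 1 raw count per Ensembl gene and library, and lines that name no gene were left out. The authors' deposited tables of Kir2.1 against wild type hold log2 fold changes with errors, a test score, p-values and mean normalized signal per gene.

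Gene symbols matched 46488 of 47069 identifiers. The counts were tested with edgeR 4.0.16 (quasi-likelihood, TMM, filterByExpr) in R 4.3.3, with 1 mean per group over all 11 libraries and Benjamini-Hochberg adjustment over the 18188 genes kept; called means an adjusted p under 0.05. On simulated data with 200 genes changed 4-fold, 100% were recovered for age over both genotypes (17431 genes), 95.5% for genotype at P4 (17467 genes) and 98% for genotype at P8 (17400 genes). False calls numbered 5, 14 and 15, in the same order. The simulation gave all genes the same relative spread and no differences in cell composition, and it changed only genes above a minimum level. It therefore does not measure how often such changes would be found in these libraries. Alternatives used DESeq2 1.42.0 and limma 3.58.1, other filters and scalings, a replicate block, and each library left out. The members and gene lists were chosen with earlier results of these data known. All 8 members were described; of each other list, the 2 genes with the smallest p for age and the 1 with the smallest p in each genotype comparison could be named, and further called genes were named after their values were seen. Grk2 and Grk3 stand for the older symbols Adrbk1 and Adrbk2. Coordinates and exon lengths are from GENCODE M21. Some results on genes outside the group are not reported here.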

Additional observations from a re-analysis of the deposited data

Results flagged for a closer look

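The genotype difference of Adcyap1 went in opposite directions at the 2 ages. In CPM all 3 Kir2.1 libraries were below both wild type libraries at P4, as for 14.4% of all genes. All 3 were above the wild type libraries at P8, as for 5.47% of all genes. Per 1000 marker counts the P4 genotypes overlapped, at 6.16 and 5.70 in wild type and 4.39, 2.39 and 6.82 in Kir2.1. The groups thus separated at both ages in CPM only. The difference between the 2 genotype effects was 3.002 ± 0.95 on the log2 scale, with an edgeR p of 0.00819 and an adjusted p of 0.9998, so it did not pass over all genes. This difference ran from 2.51 to 3.64 over the 19 alternatives, with no adjusted p under 0.0719.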

How the results depend on the processing

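The falls of Opn4, Eomes, Tbx20 and Adcyap1 with age, averaged over genotypes, were called under all 19 alternatives, with log2 differences of -5.30 to -3.96, -3.14 to -2.77, -5.89 to -4.76 and -3.18 to -2.54. In wild type voom called 2 members and in Kir2.1 1 member, against 4 and 3 by edgeR; leaving out 1 library gave 1 to 4 and 3 to 4, and 4 to 5 over both genotypes and 4 to 6 on the marker scale. Over all genes voom called 964 and 4286, and leaving out 1 library gave 163 to 1339 in wild type, 1764 to 3676 in Kir2.1, 2133 to 4417 over both genotypes and 13001 to 16363 on the marker scale. Without a filter on low counts 6 members were called for age in wild type, and Opn4 was called for genotype over both ages (1 member, edgeR adjusted p 0.0409), among 2058 and 901 of 36534 genes. Leaving out 1 library gave 0 to 0 members called between genotypes, among 0 to 6 genes at P4, 0 to 219 at P8 and 0 to 609 over both ages. Without 3 libraries together (replicate 2 of both P4 groups and replicate 3 of wild type P8), a set chosen after seeing the data, age called 6 members: Opn3 at -2.37 and Trpc7 at -1.40 joined the 4, among 4187 of 19377 genes. That fit keeps 1 wild type P4 library, assumed to vary like the other groups, and it is the higher of the pair for both genes. Without those libraries 574 genes of all were called between genotypes at P8, and no member.

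Signs changed in values that were not called. Under voom these were Tbx20 at P8 between genotypes (-0.53), Eomes in the test between genotype effects (-0.017), Trpc7 with age in Kir2.1 (0.18) and Opn3 on the marker scale (-0.89). Without the 3 libraries they were Trpc6 between genotype effects (-0.71) and Opn3 on the marker scale (-0.41). With 1 library left out, the genotype difference at P4 ran from -1.49 to 0.18 for Opn4, -0.87 to 0.33 for Opn3 and -1.62 to 0.27 for Tbx20. At P8 it ran from -1.01 to 1.12 for Opn4, -0.22 to 1.14 for Tbx20 and -0.017 to 0.54 for Trpc7, and over both ages from -0.99 to 0.12 for Opn4, -0.051 to 0.51 for Adcyap1 and -0.67 to 0.27 for Tbx20. The difference between genotype effects ran from -0.67 to 2.01 for Opn4, -0.23 to 0.51 for Eomes and -0.32 to 0.60 for Trpc6. Trpc7 with age in Kir2.1 ran from -0.58 to 0.22 and Opn3 on the marker scale from -0.28 to 0.64. The cause was not tested.

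Replicate numbers did not pair the libraries: same-numbered libraries correlated at -0.08 to 0.14 and others at -0.15 to 0.14. With the replicate number as a block, 4 members were called for age in wild type, 3 in Kir2.1 and 4 over both, among 558, 2928 and 3721 genes, and 0 between genotypes; Trpc7 with age in Kir2.1 was 0.044 and Opn3 on the marker scale -0.18, neither called. Depth limits Opn5 and the P8 values of Tbx20 and Adcyap1, at 0 to 19 counts per library. The P8 values of Opn3, with 0 counts in wild type replicate 1, and of Opn4 are thin too.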
